A study of Mus musculus with 6 samples.

Results

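The 8 genes described here are known from tissue macrophages. They are the genes of complement component C1q (C1qa, C1qb and C1qc), the receptor genes Csf1r, Emr1 and Mertk, and the scavenger receptor genes Mrc1 and Cd163. They were picked by symbol, provided that the deposited expression table listed the row, and 8 of 8 were found among 12966 listed genes. Being listed depends on measured values, because BKO-3 held no value between 0 and 0.486 FPKM. The material was brown fat RNA from male C57BL/6J mice aged 10 weeks, in 6 libraries. Every mouse carried floxed Bscl2 (Bscl2f/f). The 3 control libraries, Ctrl, had no Cre, and the 3 knockout libraries, BKO, had Ucp1Cre, in which the promoter of the brown adipocyte gene Ucp1 drives Cre recombinase. Bscl2 encodes seipin, a protein of the endoplasmic reticulum needed for normal lipid droplets. Because Cre was present in BKO alone, its own effect and the loss of Bscl2 cannot be told apart. Separate animals per library are not stated. The p-values set the difference between groups against the scatter of these samples within groups, and that scatter may be technical.

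Macrophages live in adipose tissue, where they clear dying cells and lipid and recycle iron. Their survival depends on the receptor encoded by Csf1r. Many of them secrete C1q, which starts the classical complement pathway and tags dying cells for uptake. Cd163 and Mrc1 are surface receptors often used to mark macrophages settled in a tissue.

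Levels are in FPKM, fragments per kilobase of transcript per 1e6 mapped fragments, a scale per length on which genes can be compared. Values are listed throughout in the order of replicates 1, 2 and 3, and ± gives the SD over n = 3 libraries per group. Bscl2, the targeted gene, stood at 109 ± 6.05 against 17.4 ± 1.32 FPKM, 16.0% of Ctrl, in the direction of the labels (limma adjusted p = 3.95e-05). Brown adipocyte markers were listed for 12 of 12 genes, Ucp1 lying between 2484 and 3498 FPKM. Summed FPKM was 2808874 in BKO-3 and 1119228 to 1617963 elsewhere. The largest single value in each library was that of a mitochondrial tRNA gene, 861875 FPKM in BKO-3 and 182991 to 430467 FPKM elsewhere. The sums thus rest in part on such rows and do not give the scale of other genes. Skeletal muscle genes were uneven within groups, with summed levels of 730.2, 159 and 224 FPKM in Ctrl and 243, 497 and 199 FPKM in BKO.

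The 8 genes did not share 1 direction. The mean of C1qa, C1qb and C1qc in BKO was 1.87, 2.24 and 1.92 times that in Ctrl, that of Emr1 2.04 times, of Csf1r 1.45 times, of Mrc1 1.34 times and of Mertk 1.08 times, whereas Cd163 stood at 45.1% of its Ctrl level. Of the 8, 7 had a mean of at least 1 FPKM and were tested, all 7 with a Ctrl mean above that level, and Cd163 was not. By limma, a linear model on log2(FPKM + 1) over 11397 genes, 0 of the 7 passed an adjusted p of 0.05, against 0.158% of tested genes higher, 0.00877% lower and 0.167% in either direction. At an unadjusted p below 0.05, limma gave 6 of 7 higher in BKO and 0 lower, against 6.63% and 3.52% of tested genes. With quantile normalization the counts were 5 of 7 and 0, against 5.62% and 5.46% of tested genes, and with median ratio rescaling 5 of 7 and 0, against 6.06% and 4.92%, Mrc1 being the gene lost. The higher count dropped to 4 of 7, losing Csf1r and Mrc1, without Ctrl-2, Ctrl-3, BKO-1 or BKO-3. In that order, 3.95%, 5.28%, 5.03% and 8.76% of tested genes were then higher. The lower count was 0 of 7 each time, against 2.04%, 4.55%, 2.57% and 5.27% of tested genes. For 5 of 7 the BKO values all exceeded the Ctrl values, as in 9.06% of tested and 9.77% of listed genes, and for 0 of 7 they were all smaller, as in 6.82% of tested genes. The median log2 difference was 0.64 over the 7 and 0.0056 over all tested genes. The genes were proposed with results of this comparison known, so these counts and medians are a description. In whole tissue, more cells of a type and more RNA per cell cannot be told apart.

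**Figure D1:**
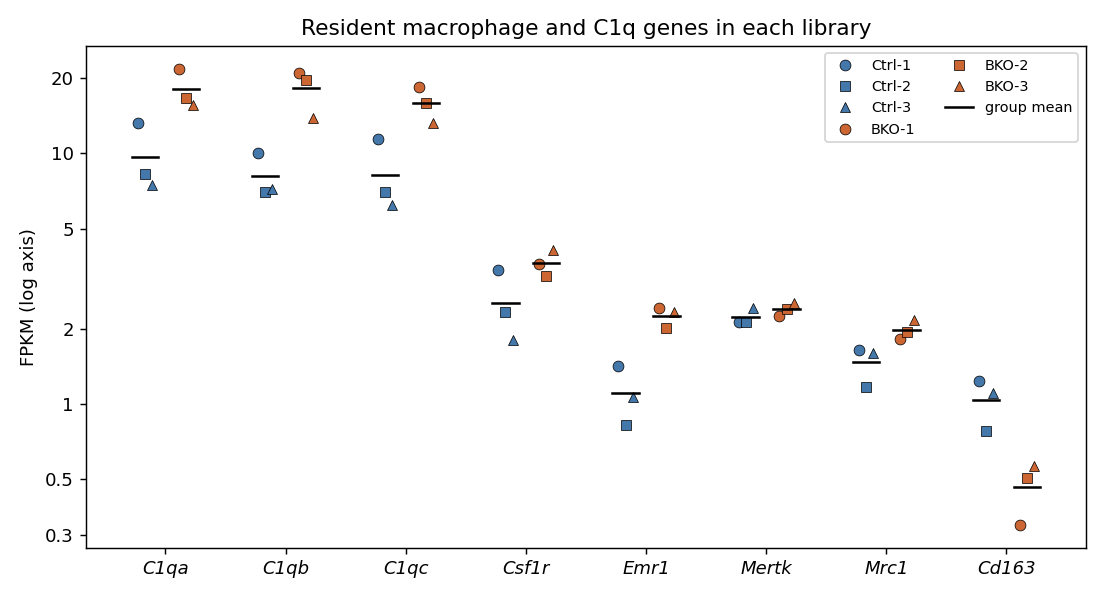
FPKM of the 8 genes (log axis) in the 3 Ctrl libraries (blue) and the 3 BKO libraries (orange), with the replicate number as marker shape and bars for group means. C1qa, C1qb, C1qc, Emr1 and Mrc1 show every BKO point above every Ctrl point, Csf1r and Mertk overlap, and Cd163 shows every BKO point below the Ctrl points.

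C1q is built from A, B and C chains that assemble into 1 molecule, and their genes were the most abundant of the 8. C1qa, the A chain, measured 13.2, 8.25 and 7.46 FPKM in Ctrl and 21.8, 16.6 and 15.6 FPKM in BKO. The groups did not overlap, the lowest BKO value being 1.18 times the highest Ctrl value, that of Ctrl-1. The log2 difference was 0.86 (SE 0.210, limma adjusted p = 0.248), with means of 9.65 ± 3.13 against 18.0 ± 3.30 FPKM.

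C1qb, the B chain, measured 10.1, 7.02 and 7.22 FPKM in Ctrl and 21.0, 19.7 and 13.8 FPKM in BKO. Again no BKO value reached the Ctrl range, BKO-3 standing 1.37 times above Ctrl-1. The log2 difference was 1.07 (SE 0.183, limma adjusted p = 0.15), with means of 8.10 ± 1.70 against 18.2 ± 3.85 FPKM.

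C1qc, the C chain, measured 11.4, 6.995 and 6.25 FPKM in Ctrl and 18.5, 15.8 and 13.2 FPKM in BKO. Ctrl-1 was the highest control and BKO-3 the lowest knockout, as for C1qb, without overlap. The log2 difference was 0.90 (SE 0.212, limma adjusted p = 0.248). Summed over the chains, C1q stood at 26.0 ± 7.60 against 52.0 ± 9.33 FPKM, 2.003 times as high.

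Ctrl-1 also had the highest summed level of muscle genes and, among controls, of pan-myeloid genes (98.7, 66.5 and 54.5 FPKM). With a muscle score, the mean log2 level of the muscle genes, as covariate, the log2 differences of C1qa, C1qb and C1qc were 0.86, 1.07 and 0.90. Limma adjusted p was then 0.224, 0.0692 and 0.182. The part of the pan-myeloid level in the C1q values was not tested. Without Ctrl-1 the log2 differences of C1qa, C1qb and C1qc were 1.09, 1.22 and 1.13 (limma adjusted p = 0.0863, 0.0955 and 0.0695).

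The chains kept similar proportions to each other in all 6 libraries. The FPKM ratio of C1qa to C1qc lay within 1.05 to 1.19, that of C1qa to C1qb within 0.844 to 1.32 and that of C1qb to C1qc within 0.880 to 1.24. Each ratio overlapped between the groups. Over the 6 libraries, whose 2 groups these values share, Pearson's r of log2 levels was 0.99 for C1qa with C1qc, 0.95 for C1qa with C1qb and 0.97 for C1qb with C1qc, as a description.

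**Figure D2:**
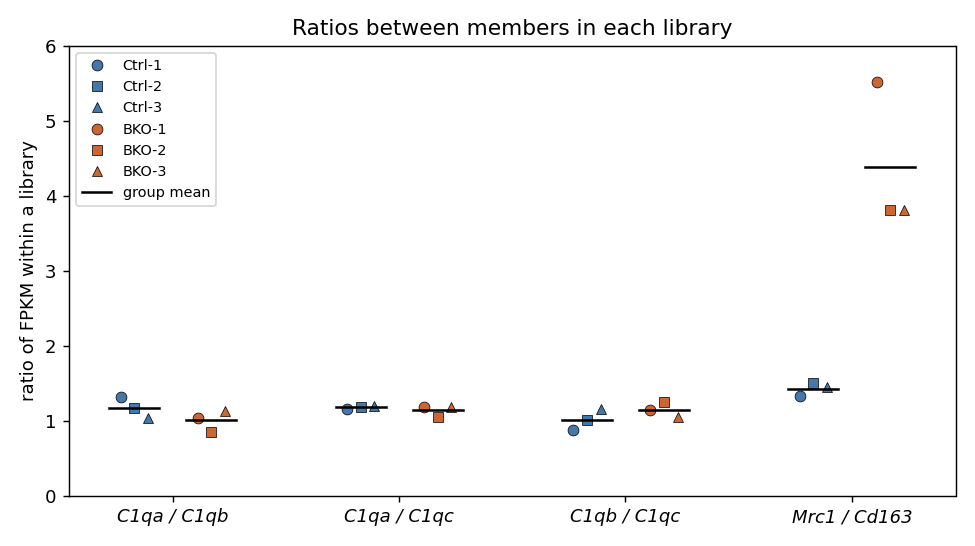
Ratio of the FPKM of 2 genes within each library, Ctrl in blue and BKO in orange, with bars for group means. The C1q chain ratios lie between 0.844 and 1.32 in the 6 libraries, while Mrc1 over Cd163 is 1.33 to 1.503 in Ctrl and 3.81 to 5.51 in BKO.

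The C1q genes also lie side by side. In the RefSeq annotation of GRCm38.p6, a later build than the authors' own, C1qb, C1qc and C1qa follow each other on chromosome 4 with no other protein-coding gene between them. Kdm1a, a histone demethylase gene and the nearest listed gene on 1 side, stood at 11.03 ± 0.805 against 10.1 ± 0.753 FPKM (limma adjusted p = 0.686). Zbtb40, the nearest listed gene on the other side, stood at 1.22 ± 0.238 against 1.31 ± 0.180 FPKM (limma adjusted p = 0.896).

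Upstream sequence was found for 5 of the 8 genes in RefSeq's promoter table for GRCm38.p6. The 250 bases before the start are printed for C1qb and C1qc, whose levels ran together, for Mrc1, which had the most motif matches, and for Cd163, which lay in the opposite direction. Capitals mark matches on either strand to 6 short motifs: GAGGAA (the PU.1 type of ETS site), TGCTGA (a MAF type site), TATAAA (the TATA box), TGANTCA (AP-1), TTGCNNAA (C/EBP) and the IRF motif. Each window reads 5′ to 3′ on the strand of its gene: C1qb at chr4:136886201-136886450 (minus strand), C1qc at chr4:136892915-136893164 (minus strand), Mrc1 at chr2:14229164-14229413 (plus strand) and Cd163 at chr6:124304401-124304650 (plus strand).
C1qb: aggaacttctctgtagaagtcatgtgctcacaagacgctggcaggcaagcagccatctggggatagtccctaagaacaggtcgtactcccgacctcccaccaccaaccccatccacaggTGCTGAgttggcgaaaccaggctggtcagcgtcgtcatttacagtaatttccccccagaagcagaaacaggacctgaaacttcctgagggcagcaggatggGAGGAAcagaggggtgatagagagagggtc
C1qc: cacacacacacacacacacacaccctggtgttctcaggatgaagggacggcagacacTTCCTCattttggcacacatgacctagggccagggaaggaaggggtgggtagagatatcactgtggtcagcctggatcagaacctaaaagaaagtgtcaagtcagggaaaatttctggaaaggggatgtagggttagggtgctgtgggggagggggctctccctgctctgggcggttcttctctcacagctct
Mrc1: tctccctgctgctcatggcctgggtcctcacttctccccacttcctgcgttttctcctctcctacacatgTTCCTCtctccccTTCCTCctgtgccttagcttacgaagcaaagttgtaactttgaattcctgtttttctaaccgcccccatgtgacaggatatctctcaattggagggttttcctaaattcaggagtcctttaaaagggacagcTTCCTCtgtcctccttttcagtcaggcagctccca
Cd163: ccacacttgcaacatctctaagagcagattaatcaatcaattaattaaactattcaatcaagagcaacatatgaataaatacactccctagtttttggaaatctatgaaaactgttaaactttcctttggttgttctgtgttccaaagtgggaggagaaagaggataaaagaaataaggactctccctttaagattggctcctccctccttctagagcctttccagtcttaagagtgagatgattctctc
C1qb held 1 GAGGAA at 30 bases before the start and 1 TGCTGA at 131 bases. C1qc held 1 GAGGAA on the opposite strand at 193 bases, and Mrc1 held 3 on the opposite strand at 180, 167 and 35 bases. The Cd163 and Mertk windows held none of the 6 motifs. Of 32851 windows of this length, 23.3% held GAGGAA, 16.1% TGCTGA, 12.4% TATAAA, 6.75% TGANTCA, 9.56% TTGCNNAA and 2.98% the IRF motif. A match is a description of letters, and its absence says only that these letters are not in this window.

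Csf1r encodes the receptor for colony-stimulating factor 1 and interleukin 34. It measured 3.44, 2.32 and 1.79 FPKM in Ctrl and 3.61, 3.24 and 4.12 FPKM in BKO. The groups overlapped, since Ctrl-1 lay above BKO-2. The log2 difference was 0.43 (95% interval 0.021 to 0.83, limma adjusted p = 0.471), and it moved to 0.61 on leaving out Ctrl-1 and to 0.27 on leaving out Ctrl-3.

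Emr1 encodes the F4/80 antigen, the classic mouse macrophage marker. It measured 1.42, 0.822 and 1.06 FPKM in Ctrl and 2.41, 2.01 and 2.34 FPKM in BKO. No values overlapped, the nearest pair being 1.41-fold apart. The log2 difference was 0.64 (95% interval 0.33 to 0.94, limma adjusted p = 0.198), and 0.54 to 0.74 with any 1 library left out. With a pseudocount of 0.1 in place of 1 it was 0.99.

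Mertk is a receptor tyrosine kinase by which macrophages engulf dying cells. It measured 2.12, 2.12 and 2.41 FPKM in Ctrl and 2.24, 2.40 and 2.53 FPKM in BKO. The values interleaved. The log2 difference of 0.074, the smallest of the 7 tested, had a 95% interval of -0.14 to 0.29 (limma adjusted p = 0.838). It moved to 0.044 on leaving out BKO-3 and to 0.12 on leaving out Ctrl-3, and to 0.032 with quantile normalization. The ratio of C1qb to Mertk was 4.73, 3.30 and 2.99 in Ctrl and 9.40, 8.20 and 5.45 in BKO, without overlap.

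Mrc1 encodes the mannose receptor, which takes up glycoproteins. It measured 1.64, 1.17 and 1.59 FPKM in Ctrl and 1.81, 1.93 and 2.17 FPKM in BKO. The groups were apart by only 1.11-fold, between Ctrl-1 and BKO-1. The log2 difference was 0.27 (95% interval 0.0034 to 0.54, limma adjusted p = 0.486), and 0.41 with a pseudocount of 0.1.

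Cd163, the receptor for haemoglobin bound to haptoglobin, was the least abundant of the 8. It measured 1.23, 0.780 and 1.10 FPKM in Ctrl and 0.329, 0.507 and 0.568 FPKM in BKO. Every BKO value lay below every Ctrl value, as for 6.33% of listed genes. Means were 1.04 ± 0.232 against 0.468 ± 0.124 FPKM, a log2(FPKM + 1) difference of -0.47 with an exact permutation p of 0.1 (two-sided), the smallest that 3 against 3 allow. With all listed genes tested, limma gave an adjusted p = 0.261. The pseudocount of 1 shrinks a difference at this level, and with 0.1 it was -1.01. Its mean of 0.753 FPKM ranked at percentile 7.86 of listed genes. Among 1190 listed genes with means of 0.5 to 1 FPKM, 44 (3.70%) had every BKO value below Ctrl and 165 (13.9%) every BKO value above. A difference as low as that of Cd163 was found in 3, Cd163 included. Of all 1569 listed genes under the filter, 1074 had a positive difference. The absence of positive values below 0.486 FPKM in BKO-3 limits the counts of genes lower in BKO, so Cd163 may look rarer than it is. Cd163 stood just above that level there.

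Cd163 and Mrc1 thus lay on opposite sides in the same libraries. The ratio of Mrc1 to Cd163 was 1.33, 1.503 and 1.45 in Ctrl and 5.51, 3.81 and 3.81 in BKO. The Ctrl ratios were close together and apart from the BKO ratios. That gap was fixed by the opposite directions of the 2 genes and adds no support. The Cd163 values under the BKO ratios were low, at 0.329 to 0.568 FPKM. Pearson's r between Cd163 and Mrc1 was -0.45 over the 6 libraries.

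**Figure D3:**
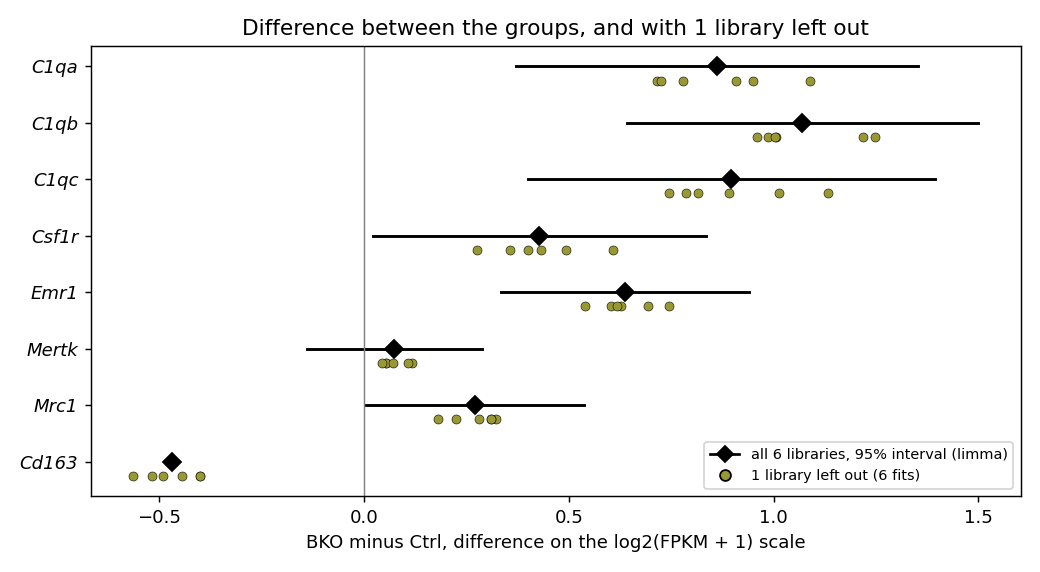
Difference between BKO and Ctrl on the log2(FPKM + 1) scale for each gene (diamonds) with limma's 95% interval, and the 6 values with 1 library left out (circles); Cd163 was under the filter on low values and has no interval. The C1q chains lie between 0.86 and 1.07, Mertk is near 0, and every circle of Cd163 is below 0.

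The ratio of FPKM to Csf1r within a library does not move with library scaling. For Cd163 the FPKM ratio was 0.358, 0.336 and 0.614 in Ctrl and 0.0911, 0.156 and 0.138 in BKO, without overlap. The FPKM ratios of the other 6 genes overlapped between groups. For C1qb the ratio was 2.93, 3.02 and 4.02 in Ctrl and 5.82, 6.08 and 3.35 in BKO, BKO-3 lying inside the Ctrl range. The ratio of Mrc1 was 0.624 ± 0.230 against 0.541 ± 0.0486, and that of Emr1 0.453 ± 0.124 against 0.617 ± 0.0493. On the log2 scale with the pseudocount, differences ran from -0.90 for Cd163 to 0.64 for C1qb. Over 7 comparisons the lowest exact permutation p was 0.1, and the lowest Benjamini-Hochberg adjusted value 0.28.

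Other complement genes were set beside C1q. Of 57, 26 were tested and 0 passed, with 4 higher and 2 lower at an unadjusted p below 0.05 by limma (median log2 difference 0.091). Of the initiating genes, 6 of 17 were tested, with 0 past either threshold of limma (median 0.10). C1s, a protease of the C1 complex, stood at 12.3 ± 5.21 against 11.9 ± 0.233 FPKM, Ctrl-1 being highest at 18.1 FPKM (limma adjusted p = 0.982). C4b, a substrate of that protease, stood at 4.30 ± 1.95 against 6.55 ± 1.02 FPKM (limma adjusted p = 0.496), and may share reads with its close copy C4a.

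Of C3, alternative and terminal pathway genes, 6 of 11 were tested, again with 0 past either threshold of limma (median 0.13). C3, the central component, stood at 127 ± 9.73 against 113 ± 15.1 FPKM, and Cfd, the adipocyte protease adipsin, at 858 ± 182 against 988 ± 213 FPKM. Of the regulators, 8 of 14 were tested and 0 passed, with 1 higher and 2 lower at an unadjusted p below 0.05 by limma (median 0.063). Cd59b, an inhibitor of the membrane attack complex, measured 28.0, 25.4 and 26.7 FPKM in Ctrl and 21.6, 20.6 and 20.8 FPKM in BKO, where every value was smaller (limma adjusted p = 0.198). Its close copy Cd59a stood at 56.0 ± 1.06 against 53.6 ± 2.39 FPKM, and reads could be split between them.

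Of receptors for complement products, 6 of 15 were tested and 0 passed, with 3 higher and 0 lower at an unadjusted p below 0.05 by limma (median 0.29). Itgb2, among those higher and named after its values were seen, was tested only through its BKO level, and the median without it was 0.14. Calr, a chaperone that also binds C1q at the cell surface, stood at 74.3 ± 5.91 against 102 ± 13.7 FPKM, and C1qbp at 67.8 ± 3.67 against 61.7 ± 2.79 FPKM. C3ar1, the receptor for C3a, was under the filter and is named after its values were seen. It measured 0.455, 0.279 and 0.289 FPKM in Ctrl and 1.42, 1.14 and 0.909 FPKM in BKO, without overlap. Every BKO value lay above Ctrl in 13.9% of listed genes with means of 0.5 to 1 FPKM. It did so too in the other receptors under the filter, C5ar1, Itgam and Itgax, also named after their values were seen. Itgax had a mean below that range of 0.5 to 1 FPKM. In BKO-3 a listed gene had either 0 or at least 0.486 FPKM. Every Ctrl value of C3ar1 and Itgax, and some of C5ar1 and Itgam, lay below 0.486 FPKM. Their place above those values in BKO-3 was thus nearly fixed by being listed and is no support. Of the C1q and TNF related family, which shares the globular head of C1q, 9 of 24 were tested and 0 passed, with 1 higher and 0 lower at an unadjusted p below 0.05 by limma (median 0.046). Its most abundant tested genes were Adipoq, at 625 ± 41.5 against 570.4 ± 97.5 FPKM, and Fam132a, at 43.3 ± 3.56 against 39.3 ± 3.13 FPKM.

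Of colony-stimulating factors and their receptors other than Csf1r, 4 of 8 were tested and 0 passed, with 3 higher and 0 lower at an unadjusted p below 0.05 by limma (median 0.48). Il34, a ligand of the Csf1r product, stood at 2.47 ± 0.726 against 3.64 ± 0.878 FPKM, and Csf2rb at 2.15 ± 0.447 against 3.04 ± 0.207 FPKM. The other ligand, Csf1, picked out with its values known, measured 1.84, 1.65 and 1.38 FPKM in Ctrl and 3.05, 3.14 and 2.26 FPKM in BKO, without overlap (limma adjusted p = 0.248).

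Of genes around Mertk and the uptake of dying cells, 17 of 23 were tested and 0 passed, with 5 higher and 1 lower at an unadjusted p below 0.05 by limma (median 0.097). Cd36, a scavenger receptor that adipocytes also make, stood at 762 ± 24.1 against 637 ± 81.9 FPKM, and Rac1 at 70.6 ± 3.15 against 70.9 ± 2.83 FPKM. The Mertk ligand Gas6, picked out with its values known, stood at 7.08 ± 1.27 against 8.26 ± 1.21 FPKM (limma adjusted p = 0.687).

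Of the haem and iron genes around Cd163, 12 of 14 were tested, and 1 rose in BKO, with 6 higher and 0 lower at an unadjusted p below 0.05 by limma (median 0.25). That gene, Slc11a1, a phagosomal metal transporter, is named after its values were seen, at 1.12 ± 0.142 against 3.24 ± 0.491 FPKM (limma adjusted p = 0.0428). The ferritin genes Fth1 and Ftl1 stood at 1747 ± 29.8 against 1903 ± 139 FPKM and at 481 ± 53.6 against 575 ± 95.6 FPKM. Slc40a1, the iron exporter, and Hp, the haptoglobin gene, were picked out with their values known. Slc40a1 measured 9.11, 9.08 and 10.7 FPKM in Ctrl and 19.7, 14.8 and 20.5 FPKM in BKO (limma adjusted p = 0.0944), and Hp stood at 306 ± 31.5 against 470.3 ± 91.2 FPKM (limma adjusted p = 0.248).

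Of mannose receptor relatives and myeloid lectins, 7 of 21 were tested and 0 passed, with 2 higher and 0 lower at an unadjusted p below 0.05 by limma (median 0.14). Both of the higher genes had Ctrl means under 1 FPKM and were tested only through their BKO level, and the median of the 4 genes with a Ctrl mean of at least 1 FPKM was -0.087. Mrc2 stood at 1.57 ± 0.324 against 1.73 ± 0.159 FPKM, and Mgl2, a lectin of macrophages and dendritic cells, at 3.14 ± 0.410 against 2.35 ± 0.586 FPKM. Of adhesion receptors related to Emr1, 7 of 12 were tested, with 0 past either threshold of limma (median -0.028). The most abundant were Eltd1, at 23.6 ± 1.68 against 22.0 ± 2.22 FPKM, and Gpr116, at 27.4 ± 0.790 against 25.2 ± 3.16 FPKM. Of macrophage transcription factors, 12 of 15 were tested and 0 passed, with 3 higher and 0 lower at an unadjusted p below 0.05 by limma (median 0.14), Irf8 among those higher having been tested only through its BKO level. Cebpa and Cebpb, which adipocytes also express, stood at 211 ± 45.0 against 189 ± 22.7 FPKM and at 213 ± 34.0 against 267 ± 22.5 FPKM.

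Other genes used for resident macrophages check the name given to the 8. Of 25, 14 were tested and 0 passed, with 5 higher and 1 lower at an unadjusted p below 0.05 by limma (median 0.19). The 5 higher, named after their values were seen, were Pf4, Ltc4s, Maf, Ninj1 and Stab1. Their BKO means were 1.95, 1.79, 1.53, 1.35 and 1.34 times those in Ctrl, without overlap for Maf and Ninj1 alone. Sepp1 was the 1 lower. Lyve1, Timd4, Vsig4 and Cx3cr1, with 5 more, were not listed under these symbols in the expression table and could not be measured. Because BKO-3 held no positive value below 0.486 FPKM, genes low in BKO may be among those not listed. The counts and the median of this list may therefore lean towards genes higher in BKO. Fcgrt and Sepp1, also expressed outside macrophages, stood at 112 ± 7.15 against 119 ± 7.55 FPKM and at 361 ± 5.41 against 322 ± 17.7 FPKM. Folr2, picked out with its values known, measured 1.41, 0.715 and 0.681 FPKM in Ctrl and 1.12, 1.34 and 1.02 FPKM in BKO, values that overlapped, and its Ctrl mean was under 1 FPKM.

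Markers of cells that could carry these transcripts were measured too. Pan-myeloid genes, 17 of 19 listed and 0 of them at 0 in any library, summed to 54.5 to 98.7 FPKM in Ctrl and 171 to 203 FPKM in BKO. Much of that sum was Lyz2, at 23.8 ± 6.20 against 84.2 ± 10.5 FPKM, and 5 of the 15 tested genes overlapped between groups. Of 15 tested, 3 rose, namely Lyz2, Ctss and Tyrobp (limma adjusted p = 0.0195, 0.0439 and 0.0439), and the median was 0.72. Over all tested genes 0.158% rose. At an unadjusted p below 0.05, limma gave 10 of the 15 higher and 0 lower, against 6.63% and 3.52% of all tested genes. Of lipid-associated macrophage genes, 12 of 16 were tested, with 8 higher and 0 lower at an unadjusted p below 0.05 by limma (median 0.61). Past the adjusted threshold 4 rose, namely Mmp12, Gpnmb, Ms4a7 and Plin2. Of these, Mmp12, Gpnmb and Ms4a7 had Ctrl means of 0.164, 0.255 and 0.573 FPKM and, with Cd84, were tested only through their BKO level, so their count is no support. The median of the 8 genes with a Ctrl mean of at least 1 FPKM was 0.35, and of these Plin2 passed. Plin2, a lipid droplet coat gene, is also made by adipocytes. Of monocyte genes, 8 of 12 were tested and 0 passed, with 3 higher and 0 lower at an unadjusted p below 0.05 by limma (median 0.37), and 1 of those higher was tested only through its BKO level. Of dendritic cell genes, 5 of 13 were tested and 0 passed, with 4 higher and 0 lower at an unadjusted p below 0.05 by limma (median 0.78). Cd74 and H2-Aa, antigen presentation genes also made by macrophages, stood at 47.5 ± 14.2 against 82.7 ± 7.18 FPKM and at 36.1 ± 12.7 against 63.5 ± 5.98 FPKM. The part of these cells in the values of the 8 genes was not tested.

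Among other cell types, endothelial genes had a median of -0.0065 over 14 tested genes and summed to 444 to 511 FPKM in Ctrl and 464 to 516 FPKM in BKO. Preadipocyte and fibroblast genes had a median of 0.41 over 12 tested, with 0 past the adjusted threshold and 5 higher and 0 lower at an unadjusted p below 0.05 by limma, and summed to 359 to 471 FPKM in Ctrl and 473 to 559 FPKM in BKO. The medians of the muscle, erythroid and brown adipocyte lists were 0.014, -0.14 and 0.067. The lymphocyte list had 1 tested gene (median -0.12) and the neutrophil and mast cell list 2 (median -0.042).

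**Figure D4:**
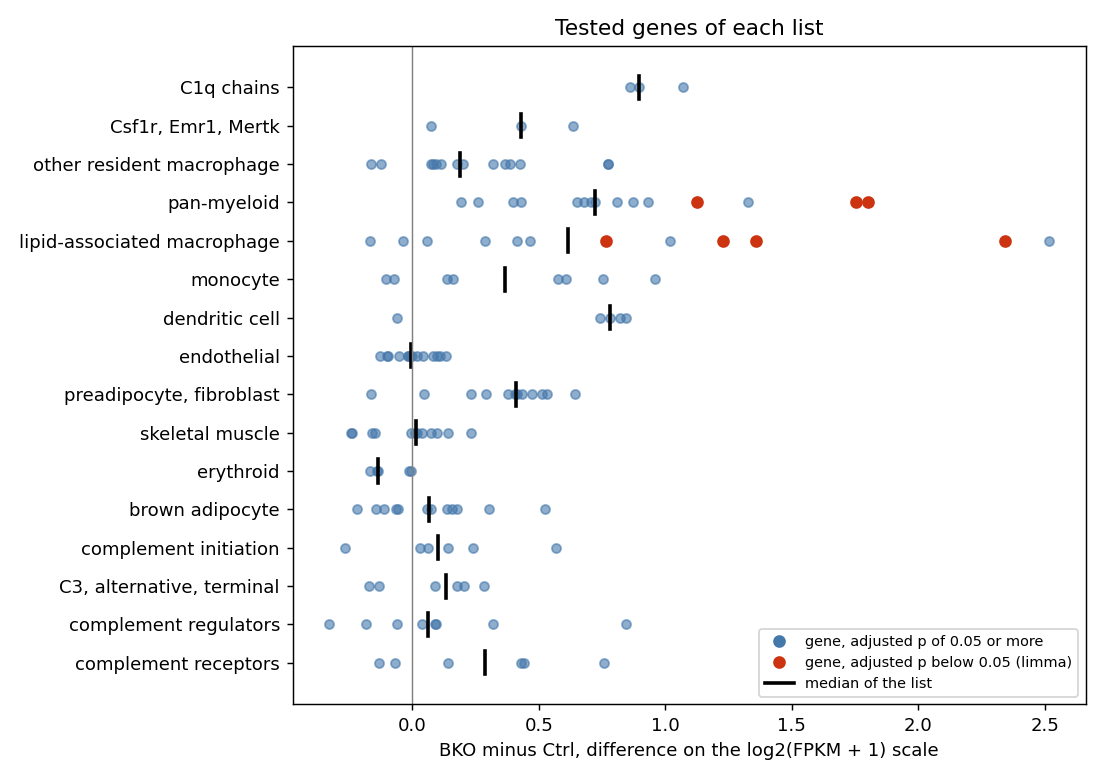
Difference between BKO and Ctrl on the log2(FPKM + 1) scale for the tested genes of each list, with a black bar for the list's median and red points for genes with a limma adjusted p below 0.05. The C1q chains lie at 0.86 to 1.07, and the other complement lists have medians of 0.063 to 0.29.

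Likeness was measured as Pearson's r to the mean standardised log2 profile over the 6 libraries, among 11390 tested genes. Nearest to the C1q chains were Slamf9, Gm15658, Psat1, Clstn1 and Lyz1, with r from 0.99 to 0.996. Slamf9, a receptor of antigen-presenting cells, measured 0.962, 0.478 and 0.416 FPKM in Ctrl and 1.803, 1.499 and 1.09 FPKM in BKO. Lyz1, a lysozyme gene that may share reads with Lyz2, measured 1.25, 0.558 and 0.533 FPKM in Ctrl and 3.16, 2.38 and 1.57 FPKM in BKO. In both, as in C1q, Ctrl-1 was the highest control and BKO-3 the lowest knockout. Slamf9 and Lyz1 had Ctrl means of 0.619 and 0.782 FPKM. Both were compared only through their BKO level, so their likeness is no support. Nearest to Cd163 with Mrc1 were Gtf2h1, Mfap1a, 1200014J11Rik, Pex6 and Kdm2a (r from 0.97 to 0.98), each overlapping between groups, a profile that averages genes running apart. Nearest to Cd163 alone, a profile added after the values were seen, were Ctnna1, Fam185a, Gpx8, Tmem59 and Pvrl2 (r from 0.98 to 0.99), each with every BKO value below Ctrl. With 6 libraries in 2 groups, such values of r are a description.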

How the data were processed

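The authors deposited FPKM values per gene symbol, scaled for transcript length and library size. The submitters' processing notes name CASAVA 1.8, TopHat2 2.0.12, Cufflinks 2.2.1 and build NCBIM37, without roles here, and the sources used here give no other settings. Columns were matched through sample descriptions, in which MT columns are Ctrl and WT columns BKO. Without counts, the depth behind each value is unknown, and some positive values are vanishingly small.

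Testing used log2(FPKM + 1), which understates differences of low genes, for 11397 genes averaging at least 1 FPKM. The test was limma 3.58.1 under R 4.3.3 with a trend on intensity, without covariates. Every adjusted p is Benjamini-Hochberg over all tested genes, with a threshold of 0.05. Folds are ratios of mean FPKM. The fit was tested on simulated data. The 8 genes and all lists were chosen with earlier results of these data known. The rule for naming took the 8, Bscl2, up to 4 passing genes per list (the 2 most abundant tested where fewer than 2 passed) and 5 genes nearest each profile. Genes it picked from the monocyte, endothelial, fibroblast, muscle, erythroid, brown adipocyte, lymphocyte and neutrophil and mast cell lists are left unnamed, as those lists are given by counts, sums and medians. Ucp1, Kdm1a, Zbtb40, Cd84, Irf8, absent list genes and those marked in the text stand outside the rule. A filter on the mean over both groups favours genes high in 1 group. Alternatives covered pseudocounts, filters, scalings, variance settings, library weighting, blocking by replicate, a muscle covariate and leaving out single libraries.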

Additional observations from a re-analysis of the deposited data

How the results depend on the processing

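Each of the 8 genes kept its direction in all alternatives run, and 2 crossed the threshold by limma. C1qa passed with the replicate number as a block (adjusted p = 0.0485, range over alternatives 0.0485 to 0.709), and C1qb with library weights (0.0335, range 0.0335 to 0.482). The Cd163 difference of -0.47 became -1.01 and -0.66 with pseudocounts of 0.1 and 0.5. Over all listed genes it was -0.48 with median ratio rescaling and -0.56 with quantile normalization, both chosen after seeing the data. Relative to Csf1r, Mrc1 turned from -0.16 to 0.0346 without Ctrl-3, over a range of -0.29 to 0.0346 with any 1 library left out. Genes called higher and lower over the whole table, 18 and 1, became 11 and 1 with no filter, 9 and 1 at a mean of at least 5 FPKM, 32 and 1 with robust empirical Bayes, 48 and 6 with library weights and 8 and 1 with a muscle score. Leaving out 1 library gave 5 (without BKO-1) to 30 (without BKO-3) higher and 1 to 3 lower (3 without Ctrl-1). The cause was not tested.

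With the replicate block, 23 and 2 genes were called. C1qb and C1qc did not pass with that block (limma adjusted p = 0.0523 and 0.0596). Same-numbered libraries did not deviate together more than others, with r = 0.20, -0.10 and -0.10 for numbers 1, 2 and 3. For differently numbered libraries r ran from -0.13 to 0.22, so the numbers are not taken to pair samples. The low levels of Cd163, Emr1 and Mrc1 and the 3 libraries per group limit precision.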
